A study of Drosophila melanogaster with 4 samples.

Results

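The bithorax complex of Drosophila melanogaster held 7 binding peaks of the chromatin protein Cmi in early embryos, and 1 of them tied for the 10th highest score of the whole list. The complex was taken as the stretch of chromosome arm 3R from 12480000 to 12810000 (FlyBase release 5, 330001 bp). A peak belonged to it if its midpoint lay there, so membership within the stretch rests on position and not on any measured value. The stretch itself was chosen with earlier results of these data known. The members are 7 of the 685 peaks on 3R, of the 2679 on the 6 major arms (2L, 2R, 3L, 3R, 4 and X) and of the 3110 in the list. The stretch carries the Hox genes Ubx, abd-A and Abd-B with their regulatory domains.

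The list comes from chromatin immunoprecipitation with sequencing (ChIP-seq) on whole embryos of 0 to 8 h, with 2 libraries from a polyclonal rabbit anti-Cmi antibody and 2 input libraries. Both groups are of the strain Exd-GFP-13T, genotype w; PBac{y[+]-attP-3B}VK00033, which carries a genomic exd transgene with GFP in place of the stop codon. Extradenticle, the product of exd, is a DNA-binding partner of Hox proteins, and no embryos without the transgene were part of the comparison. The stage and strain fields were followed here, although the protocol text of the same labels speaks of another stock and an older collection. The labels therefore do not settle the age and stock of the embryos. The list gives 1 position and 1 score per peak and nothing per library, so no value has a replicate error, library depth is unknown, and every comparison is a description without a test. In chromatin of whole embryos, fewer cells with Cmi at a site and less Cmi per cell cannot be told apart.

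Hox genes give the segments of the body axis their identity. Ubx specifies the posterior thorax and the front of the abdomen, abd-A the middle of the abdomen and Abd-B its posterior end, and each is active only in some segments of the embryo. Their expression is set by long arrays of enhancers, insulators and Polycomb response elements that lie between and within the genes, and is held on by Trithorax-group and off by Polycomb-group proteins. Cmi (Cara Mitad, CG5591, listed as Lpt in the release 6 gene table) belongs to the complex built around the methyltransferase Trithorax-related (Trr), which places methyl groups on lysine 4 of histone H3, mainly at enhancers.

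With rising coordinate the release 6 gene table places Ubx first, abd-A between and Abd-B last on 3R. By start position it lists 16 genes from Ubx to Abd-B, of which 6 are protein-coding, 7 are long noncoding RNAs, 2 are miRNAs and 1 is an antisense RNA. Besides the Hox genes, the protein-coding ones are CG31275, Glut3 and MSAmiP. The noncoding ones include lncRNA:bxd, which lies between Ubx and abd-A, and lncRNA:iab4, lncRNA:iab8, mir-iab-4 and mir-iab-8, which lie between abd-A and Abd-B. The miRNAs mir-iab-4 and mir-iab-8 repress Hox genes of the complex. That table is of another build than the peaks, so no peak is given to a gene or a regulatory element here, and the sequence under the peaks was not used. Order along the stretch can still be followed, from the Ubx side at low coordinates to the Abd-B side at high ones.

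The highest-scoring peak of the complex lay near its middle, at 3R:12624388-12624864, with a score of 109.7 and a width of 477 bp. Its score stood 7th among the 685 peaks of 3R and 10th in the whole list, level with 1 peak of 2R. A further high peak lay 35.9 kb up the arm between midpoints, at 3R:12660230-12660730, with a score of 42.9 and a width of 501 bp. It stood 54th on 3R, where 92.1% of the peaks scored lower. These were the only members above the upper quartile of the major arms (22.455), which makes 2 of 7 or 28.6% (95% Wilson interval 8.22 to 64.1), and 25% of all peaks of the major arms pass that value by construction. The share of the members was thus near the background.

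The other 5 peaks were low, with scores under the median of the major arms (13.99). On the Ubx side, the first peak lay at 3R:12545712-12545912 with a score of 8.11 and a width of 201 bp, the smallest width in the list, which it shares with 23 other peaks of 3R. A close pair came next, at 3R:12589822-12590060 (score 13.1, width 239 bp) and 3R:12597611-12597856 (score 9.19, width 246 bp). Between both high peaks lay the lowest score of the complex, 7.78, at 3R:12637589-12637805 with a width of 217 bp. Only 2.63% of the peaks of 3R scored lower than that one. The last peak, toward Abd-B, lay at 3R:12759831-12760475 and was the widest member, at 645 bp, with a score of 10.7. High and low peaks thus alternated in the middle of the stretch, and both ends held low ones only.

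**Figure D1:**
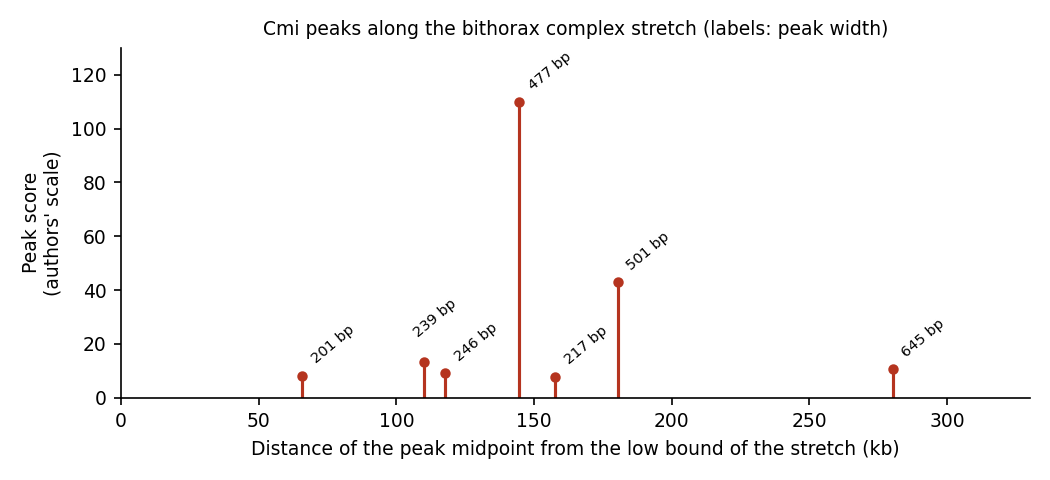
Score of each of the 7 Cmi peaks (vertical axis, the authors' scale) against the distance of its midpoint from the low bound of the stretch in kb, with the width of the peak written beside it. The peaks of 109.7 and 42.9 stand at 145 and 180 kb, and the other 5 lie between 7.78 and 13.1.

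The peaks are described next by their place along the complex, and a departure from even placement was not tested. The middle 110 kb (12590001 to 12700000) held 4 of the 7 midpoints, and these peaks have 1441 of the 2526 bases under peaks. The second member, with its midpoint at 12589941, fell just below that part. The 110 kb below, on the Ubx side, held 2 peaks with 440 bases, and the 110 kb above, on the Abd-B side, held 1 with 645. From the midpoint of the second member to that of the sixth, 5 peaks lay within 70.5 kb. Above them followed 99.1 kb without a peak, from 12660730 to 12759831, the longest gap inside the stretch and the 86th longest of the 684 gaps of 3R. The outer members were also remote from the next peaks outside, by 88.7 kb on the Ubx side and 93.8 kb on the Abd-B side. A position without a called peak is not shown to lack Cmi, since the depth of the libraries is unknown.

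No member had a close neighbour. All 7 lay more than 5 kb from the nearest other peak, midpoint to midpoint, whereas 32.6% of the peaks of 3R did so. The 95% Wilson interval for 7 of 7 is 64.6 to 100%, but it takes the members as independent, which they are not. The peaks scoring 13.1 and 9.19 are each other's nearest (7.79 kb), as are those scoring 109.7 and 7.78 (13.1 kb). The interval is therefore too narrow and is no test against the share of 3R. At 10 kb the count was 5 of 7 against 24.8% on 3R. The distances to the nearest peak ran from 7.79 kb, within the pair on the Ubx side, to 94.3 kb for the peak nearest Abd-B, with a median of 13.1 kb. The median was 1.90 kb for the other 678 peaks of 3R (quartiles 0.865 and 9.67 kb). Single peaks without a neighbour are common elsewhere too, and the 216 such peaks of 3R outside the complex had a median distance of 18.4 kb, above that of the members.

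**Figure D2:**
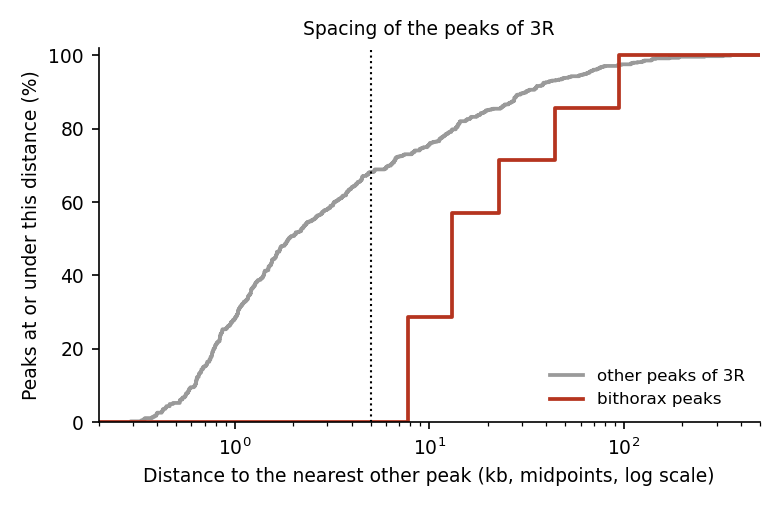
Share of peaks (vertical axis, %) whose nearest other peak lies at or under the distance on the horizontal axis (kb between midpoints, log scale), for the 7 peaks of the complex and the other 678 peaks of 3R. The dotted line marks 5 kb, below which the line of the complex stays at 0.

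In number of peaks the complex was ordinary for its arm. Stretches of the same length were slid along 3R in steps of 10 kb from the first to the last peak, which gave 2744 stretches that overlap each other. Of these, 47.0% held fewer peaks than the complex, 8.02% held the same number and 44.9% held more. Their median was 7 peaks (quartiles 4 and 11), with a range from 0 to 31, and 132 held none. The complex had 2.12 peaks per 100 kb, compared with 2.47 over 3R. When 3R was instead cut into abutting stretches from the bounds of the complex, 43 of the 82 others held fewer peaks, 1 the same number and 38 more.

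The covered share was lower in rank than the count, and no member was wider than 645 bp. Peaks covered 2526 bases or 0.765% of the complex, compared with 1.55% of 3R. Of the sliding stretches, 31.7% had a smaller covered share, and their median was 1.16% (quartiles 0.570 and 1.97%). The 220 sliding stretches that held 7 peaks, some of which overlap the complex, ran from 0.529 to 3.38% with a median of 1.18%, and 9 of them were covered less. These stretches also overlap each other, so they stand for fewer separate places.

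**Figure D3:**
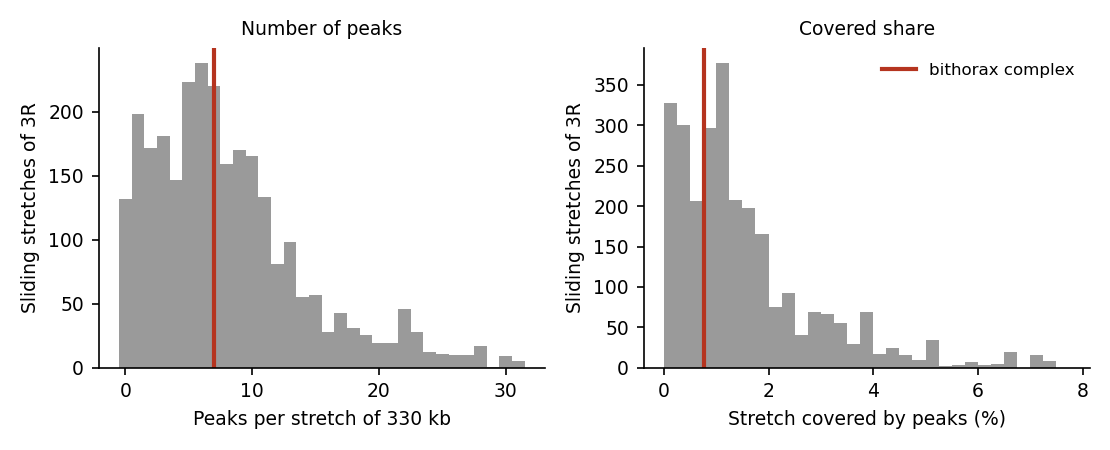
Number of sliding stretches of 3R (vertical axes, of 2744) by their number of peaks (left) and by the share of their length under peaks in % (right), with the complex as a vertical line. The line stands at the median of 7 peaks on the left, and on the right at 0.765%, below the median of 1.16%.

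The median width of the members was below that of the other peaks of 3R. Their widths ran from 201 to 645 bp with a median of 246 bp (quartiles 228 and 489 bp), while the other peaks of 3R had a median of 472 bp (quartiles 297.5 and 793.75 bp). None of the 7 was wider than 1 kb (0 of 7, which allows a share of up to 42.9% at 3 counts, or 35.4% by the Wilson limit), a width passed by 16.1% of the peaks of 3R, so this count is within what so few peaks can show. Under the median width of all peaks of 3R lay 4 of 7, beside 49.9% of all, so this share was near the background. Broad peaks such as those of up to 4054 bp elsewhere on 3R were not called in the complex. The median score of the members was 10.7 (quartiles 8.65 and 28.0) and that of the other peaks of 3R was 14.4 (10.3 and 23.7). Among the single peaks of 3R outside the complex, the median score was 13.99 and the median width 434 bp.

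The peak of 109.7 was narrow for its score. Among the 580 other peaks of the major arms whose width lay within 20% of its own, none scored higher, their median was 13.99 and their highest score was 102.1. Conversely, of the 16 peaks of the major arms with a score of at least 100, it was the second narrowest, after a peak of 462 bp on chromosome 4, and their median width was 1707.5 bp. On 3R the next narrowest of these was 990 bp wide. Of the 16, 6 had no other peak within 5 kb, and the peak of the complex was among them.

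The peak of 42.9 was also high for its width, since 7 of 571 major-arm peaks of similar width scored higher and 1 of those was the peak of 109.7 itself. The peak nearest Abd-B was the reverse: 454 of 497 peaks of similar width scored higher than its 10.7. The comparison by width was chosen after the values had been seen.

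**Figure D4:**
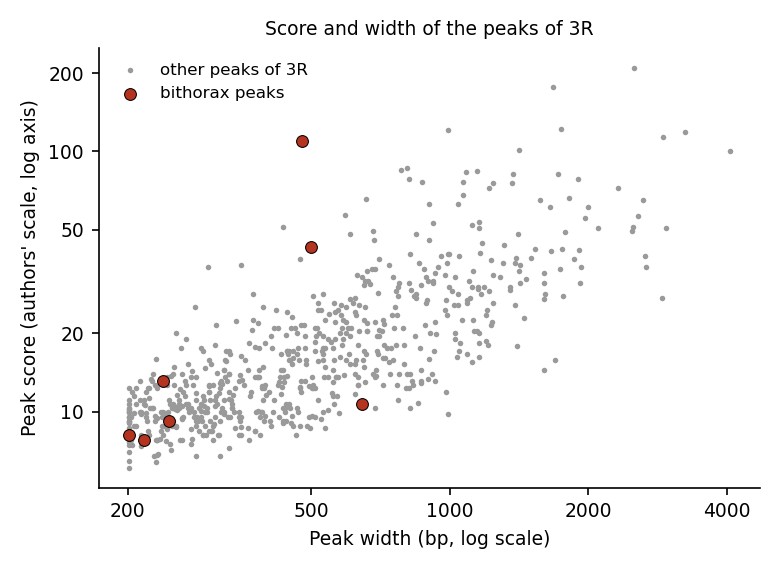
Score (vertical axis, the authors' scale) against width in bp (horizontal axis) for the 685 peaks of 3R, both on log axes, with the 7 peaks of the complex as large points. The peaks of 109.7 and 42.9 lie at the upper edge of the cloud at their widths of 477 and 501 bp, and the peak of 645 bp lies at its lower edge.

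The scores can be turned into read heights. The file names no scale, but 77 of the 84 scores shared by 5 or more peaks lie within 0.0061 of the negative log10 tail of a Poisson distribution with a mean of 31.1 reads, at whole numbers of reads. No mean more than 1 read away, from 5 to 120, matched more than 11. On that reading the peak of 109.7 has a height of 224 reads, 7.20 times the background, and the peak of 42.9 has 136 reads, 4.37 times. The other members have 67 to 81 reads, 2.15 to 2.60 times the background. The highest member thus stood at 2.77 to 3.34 times the height of the low ones.

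Of the 7 scores, 6 lay within 0.0061 of this series and all 7 within 0.015, the score of 8.11 being the one off by 0.0133. The 8.11 is shared by 42 peaks of the list, so it is a recurrent score that the series misses at 0.0061. The series was fitted to scores shared by 5 or more peaks, which include every member score except 109.7. The match of those members was thus partly fixed by the fit and is not a result about them. On 3R, 68.9% of the peaks lay within 0.0061 and 73.0% within 0.015. A score on the series is what a single background for the whole genome gives, while MACS, the caller, takes a higher local background where the input nearby exceeds it. The high peak of the complex, off by 0.0016, is therefore scored as if against the common background, and input at the site was not analysed here.

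Few stretches of the arm had a higher top score, which largely restates the rank of the peak of 109.7 as 7th on 3R. Of the 79 other abutting stretches of 3R that held a peak, 4 had a higher top score than the complex, and their median top score was 37.2. Of the 41 that held at most 7 peaks, 2 had a higher top score, the highest being 121.9, and their median top score was 24.6. The median score of the complex was nonetheless low, and 9 of the 79 had a lower one.

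**Figure D5:**
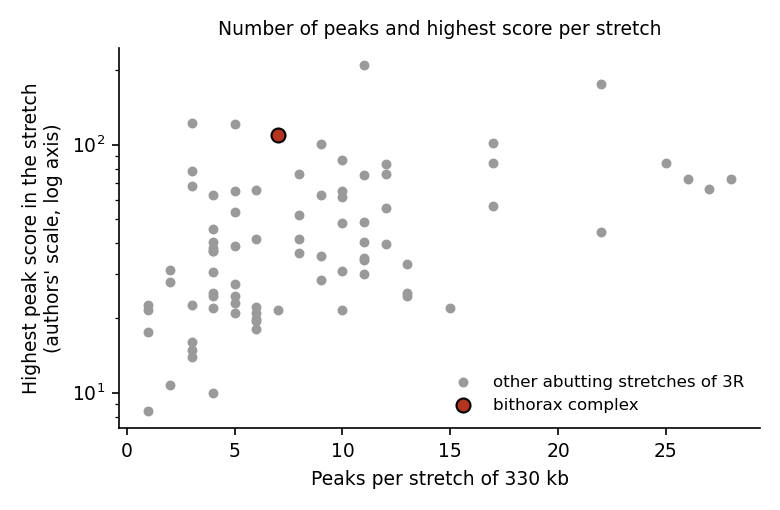
Highest score in each abutting stretch of 330 kb on 3R (vertical axis, the authors' scale, log axis) against its number of peaks (horizontal axis), with the complex as the large point at 7 peaks and 109.7. Of the 79 other stretches with a peak, 4 lie higher.

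The stretches on both sides had more peaks but lower top scores. The one below, from 12149999 to 12479999, held 9 peaks that covered 1.45% of it, with a median score of 12.3, and its top score was 28.4 (3R:12455829-12456995, 1167 bp wide). The one above, from 12810001 to 13140001, held 9 peaks that covered 1.27%, with a median score of 9.56 and a top score of 62.8 (3R:12881872-12882771, 900 bp wide). In the lower one 5 of 9 peaks had no other peak within 5 kb, and in the upper one 1 of 9, compared with 7 of 7 in the complex.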

How the data were processed

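The data are 1 list of peaks deposited by the authors, which gives each peak its bounds and a score and does not separate the libraries. The submitters' processing notes name BWA, MACS2, CASAVA (1.7.0.2 and 1.7.0.3) and the build BDGP5. Per the file headers, the build is FlyBase release 5 and the caller MACS. What each tool did, its thresholds and any pooling of replicates were not given in the sources used here. The score carries no unit in the deposited file. Coordinates are 1-based.

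Peaks were counted by midpoint, and overlapping peaks were merged for covered bases (Python 3.11.15, pandas 2.3.3, numpy 2.4.6, scipy 1.17.1, statsmodels 0.14.6). The counting and the fit of the score series were tested on simulated data. Wilson intervals (95%) and the limit for a count of 0 (3 counts) cover counting error only and take the peaks as independent. All 7 members are named, under a rule naming the 8 highest scores among others. The stretch, lists and measures were chosen with earlier results of these data known. Alternatives were bounds moved by 20 kb, overlap in place of midpoint, peaks joined within 1 kb, only peaks above the median score of the list, other steps and all 5 large arms. Genes were named from the release 6 table, by order only.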

Additional observations from a re-analysis of the deposited data

How the results depend on the processing

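Of 34 alternatives for counts and shares, 29 left the value within its limits and 5 moved it. The limits were the counting interval, or 1.5 times either way for the count of peaks and the covered share. Overlap in place of midpoint, bounds moved by 20 kb and joining within 1 kb kept the same 7 members. The count of 7 and the share of 28.6% above the upper quartile thus had no room to move there. The interval of that share, 8.22 to 64.1%, is also too wide to show a small move. The 14 alternatives for medians are kept apart, because the interval of a median over 7 peaks spans all members and cannot show a move. Of these, 11 gave the same value. With only the peaks above the median score of the list (15.75), the complex held 2 peaks, which covered 0.296% of it, 29.5% of the sliding stretches held fewer, and 100% of the members passed the upper quartile. Their median score was then 76.3 in place of 10.7, their median width 489 in place of 246 bp and their median distance to the nearest peak 35.9 in place of 13.1 kb. That subset keeps high scores by construction. With peaks joined within 1 kb, 61.4% of the stretches held fewer regions, since no members were joined. Over all alternatives the share of stretches with fewer peaks ran from 29.5 to 61.4%, and that with a smaller covered share from 24.8 to 39.4%. The count remained 7 with bounds moved by 20 kb either way. Abutting stretches were chosen after seeing the data (52.4% with fewer peaks, 31.7% with less cover). No paired analysis was possible because libraries are not separated in the file, and no replicate could be left out for the same reason.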
